A study of Rattus norvegicus with 36 samples.

Results

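Zbtb20 (ENSRNOG00000056716), Zbtb37 (ENSRNOG00000026907), Zfp871 (ENSRNOG00000004947), Rfx3 (ENSRNOG00000014486) and Ubn2 (ENSRNOG00000005564) encode zinc finger, winged-helix and chromatin proteins that act in the nucleus. These 5 genes, of 31546 in the count tables, were chosen by their own levels in these libraries, as genes that were lower after 3 cocaine injections than after saline and higher again after 15. Every difference between groups is therefore given for them as a description, with its error, and calls over all genes are quoted for them once, beside their background, with nothing read from them.

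RNA was sequenced from the ventral striatum (nucleus accumbens) of Sprague-Dawley rats aged 8 weeks, in 3 groups of 3 pools. Sal–Sal rats received 15 injections of saline over 5 days. Coc–Coc rats received 15 injections of cocaine at 20 mg/kg on the same schedule. Sal–Coc rats received saline and then 3 cocaine injections at 20 mg/kg, and tissue of all groups was taken 24 h after the last injection. The labels give 13 saline injections for Sal–Coc rats, which with 3 of cocaine is 1 more than the 15 of the other groups, and name single rats where the methods describe pools of 2 rats. They also carry the phenotype "vulnerable" for the Coc–Coc libraries, whose descriptions say "tolerant". No allele or transgene is labelled. In pooled bulk tissue, fewer cells of a type and less RNA per cell cannot be told apart.

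Zbtb20 and Zbtb37 belong to the BTB zinc finger family, in which a BTB domain recruits corepressors and C2H2 zinc fingers bind DNA. Zbtb20 is a transcriptional repressor known from the specification of hippocampal neurons and the formation of astrocytes. Rfx3 is a winged-helix factor of the RFX family that binds X-box motifs and drives genes of the cilium. Ubn2, ubinuclein-2, is a subunit of the HIRA complex, which places a variant of histone H3 into chromatin outside DNA replication. Zfp871 is a C2H2 zinc finger protein.

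The DNA just upstream is shown for the 3 of these genes whose windows could be matched. Among 8 motifs searched, the 3 windows share GTTGCC, a part of the X-box bound by RFX factors such as Rfx3. RefSeq windows (GRCr8) matched Zbtb37, Rfx3 and Ubn2, and each line is the 250 bases before the transcript start, 5′ to 3′ on the strand of the gene. They lie at chr13:75836601-75836850 on the minus strand for Zbtb37, chr1:235122423-235122672 on the minus strand for Rfx3 and chr4:68133011-68133260 on the plus strand for Ubn2. Capitals mark every match to the 8 motifs searched on both strands.
Zbtb37: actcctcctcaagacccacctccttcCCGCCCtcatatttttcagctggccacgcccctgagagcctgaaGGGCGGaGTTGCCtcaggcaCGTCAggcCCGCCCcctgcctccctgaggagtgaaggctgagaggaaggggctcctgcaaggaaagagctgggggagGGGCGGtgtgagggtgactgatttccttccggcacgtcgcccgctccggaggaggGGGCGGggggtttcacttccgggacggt
Rfx3: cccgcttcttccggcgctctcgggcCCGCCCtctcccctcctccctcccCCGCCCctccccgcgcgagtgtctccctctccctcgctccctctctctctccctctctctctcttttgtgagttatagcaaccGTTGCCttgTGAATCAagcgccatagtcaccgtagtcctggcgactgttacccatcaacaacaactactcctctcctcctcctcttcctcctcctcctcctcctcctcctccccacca
Ubn2: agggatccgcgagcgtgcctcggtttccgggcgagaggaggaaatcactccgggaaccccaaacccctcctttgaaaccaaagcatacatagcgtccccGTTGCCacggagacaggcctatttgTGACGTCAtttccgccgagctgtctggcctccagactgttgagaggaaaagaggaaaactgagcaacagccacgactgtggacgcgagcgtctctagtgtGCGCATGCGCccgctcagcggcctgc

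All 3 windows held GTTGCC, a part of the X-box that RFX factors bind, 1 match in each. It lay 173 to 168 bases before the start of Zbtb37, 118 to 113 bases before that of Rfx3 and 151 to 146 bases before that of Ubn2. Of 33469 promoter windows of the same length, 9.89% held GTTGCC. A full X-box was not searched for. Ubn2 also held 1 palindromic cAMP response element, TGACGTCA, found in 1.59% of windows, and its shorter core TGACG, found in 18.2%, counted 2 times within that palindrome and 1 time in Zbtb37. Ubn2 further held the NRF1 motif GCGCATGCG on both strands as 2 overlapping matches (1.35% of windows). The AP-1 motif TGANTCA was matched 1 time, in Rfx3 (6.34% of windows). The GC box GGGCGG was matched 5 times in Zbtb37 and 2 times in Rfx3 (30.5% of windows), and neither the E-box CACGTG (5.59%) nor CCAAT (34.0%) was matched in any of the 3. The windows were GC-rich, at 66% for Zbtb37, 62% for Rfx3 and 59.6% for Ubn2, where the median over all windows was 51.2%. These matches describe the letters of the windows and say nothing of binding.

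**Figure D1:**
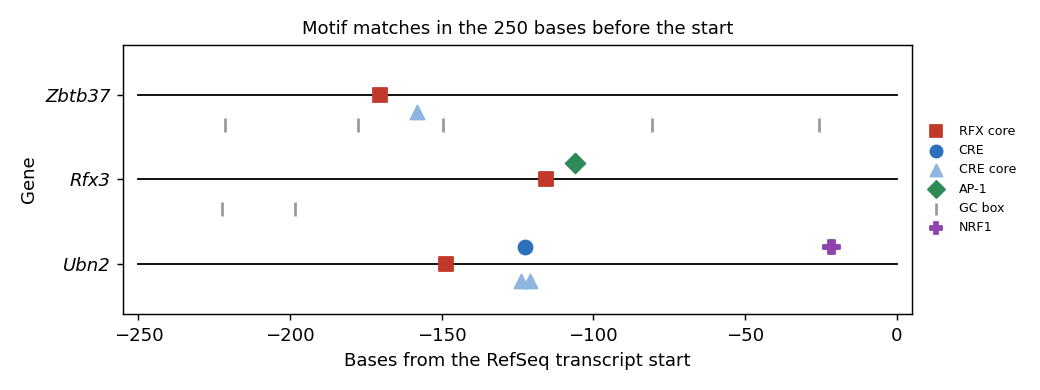
Motif matches along the 250 bases before the RefSeq transcript start of Zbtb37, Rfx3 and Ubn2 (horizontal axis, bases from the start; each symbol is 1 match at its middle). The RFX core (GTTGCC, a part of the X-box) is present 1 time in each window, while the cAMP response element and NRF1 matches lie in Ubn2 alone.

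Totals ranged from 36372166 to 42449841 counts per pool, and the levels below are CPM (counts scaled to library size, with TMM factors), the factors lying between 0.915 and 1.08. The 10 most counted genes took between 10.3% of counts (Sal–Coc pool 1) and 18.0% (Sal–Sal pool 1). All 5 genes were among the 15641 that passed the filter on low counts. Levels are compared between groups and not between genes, since they are not set per length.

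Zbtb20 was at 55.1, 56.7 and 57.5 CPM in the 3 pools given saline throughout. It stood at 15.7, 15.8 and 24.2 CPM in Sal–Coc pools 1 to 3, and at 50.0, 56.5 and 36.4 CPM in Coc–Coc pools 1 to 3. The Sal–Coc pools lay below every other pool, with pool 3 the highest of them, and the Coc–Coc pools overlapped the Sal–Sal pools through pool 2 alone. Group means were 56.4 ± 1.19 CPM for Sal–Sal, 18.5 ± 4.85 for Sal–Coc and 47.7 ± 10.3 for Coc–Coc (SD, n = 3). The log2 fold change of Sal–Coc against Sal–Sal was -1.61 (SE 0.19, 95% interval -2.03 to -1.18), and that of Coc–Coc against Sal–Coc was 1.36 (SE 0.19, 0.94 to 1.79). Against Sal–Sal, Coc–Coc stood at -0.24 (SE 0.18), with an interval from -0.66 to 0.17 that includes no difference.

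Zbtb37, the other BTB zinc finger gene, was at 3.39, 3.39 and 3.40 CPM in the Sal–Sal group. Its Sal–Coc values were 0.68, 0.586 and 0.942 CPM, and its Coc–Coc values 2.07, 2.59 and 1.47 CPM. It was the least counted of the 5 genes, with 115 to 143 counts per Sal–Sal pool, 22 to 34 per Sal–Coc pool and 61 to 112 per Coc–Coc pool. The 3 groups did not overlap, and Coc–Coc lay between the other two. The Sal–Sal SD of 0.0091 CPM was smaller than the counting error of a single pool, since 115 counts in pool 1 alone allow 2.80 to 4.07 CPM (exact 95% Poisson interval, counting error only). In Sal–Coc the same interval ran from 0.455 to 0.976 CPM in pool 1 and from 0.652 to 1.32 CPM in pool 3, so the order of these pools was not resolved at this depth. The log2 fold change was -2.20 (SE 0.26, -2.78 to -1.62) for Sal–Coc against Sal–Sal and 1.47 (SE 0.26, 0.89 to 2.05) for Coc–Coc against Sal–Coc. Coc–Coc stood at -0.73 (SE 0.24, -1.27 to -0.19) against Sal–Sal, and its interval lay below 0 where those of the other 4 genes spanned it. The interval is not adjusted for the number of genes tested, and the genes were chosen by related contrasts, so it is no test. Leaving out 1 pool moved this fold change between -0.94 and -0.54.

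Zbtb37 and Zbtb20 were also set against each other within a library, where scaling between libraries does not enter. For every 100 Zbtb20 counts there were 6.16, 5.97 and 5.92 Zbtb37 counts after saline (Sal–Sal), 4.33, 3.71 and 3.90 after 3 cocaine injections (Sal–Coc), and 4.13, 4.59 and 4.04 after 15 (Coc–Coc). The ratio was thus lower in every cocaine pool than in every saline pool, and it overlapped between Sal–Coc and Coc–Coc, unlike the level of either gene. It rests on 22 to 34 Zbtb37 counts per Sal–Coc pool. Its counting error was not worked out, and the separation of single pools is limited by it.

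Zfp871 was at 17.4, 19.2 and 16.8 CPM in the Sal–Sal group. Its Sal–Coc values were 11.0, 10.8 and 12.1 CPM, and its Coc–Coc values 15.6, 22.2 and 18.4 CPM. Its Sal–Coc pools lay below all others, and the Coc–Coc pools spread on either side of the Sal–Sal range. The log2 fold change was -0.66 (SE 0.13, -0.95 to -0.37) for Sal–Coc against Sal–Sal, the smallest drop of the 5 genes. It was 0.73 (SE 0.13, 0.44 to 1.02) for Coc–Coc against Sal–Coc and 0.07 (SE 0.13, -0.21 to 0.36) for Coc–Coc against Sal–Sal. Reads that mapped more than 1 time were removed before counting, which for a gene of a large zinc finger family can take reads shared with its relatives.

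Rfx3 was at 37.0, 42.9 and 45.2 CPM in the Sal–Sal group. Its Sal–Coc values were 23.4, 22.2 and 22.6 CPM, and its Coc–Coc values 40.3, 46.8 and 37.3 CPM. The Sal–Coc pools were close together (22.7 ± 0.582 CPM, SD, n = 3), and the means of Sal–Sal (41.7 ± 4.26) and Coc–Coc (41.5 ± 4.86) differed by less than the spread between their pools. The log2 fold change was -0.88 (SE 0.10, -1.10 to -0.65) for Sal–Coc against Sal–Sal, 0.87 (SE 0.10, 0.64 to 1.09) for Coc–Coc against Sal–Coc and -0.01 (SE 0.10, -0.23 to 0.21) for Coc–Coc against Sal–Sal.

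Ubn2 was at 37.3, 46.6 and 53.0 CPM in the Sal–Sal group. Its Sal–Coc values were 26.0, 26.5 and 28.4 CPM, and its Coc–Coc values 49.2, 59.4 and 45.1 CPM. It was the most spread of the 5 genes among saline pools on the log2 scale, and its Coc–Coc mean (51.2 ± 7.37 CPM) lay above its Sal–Sal mean (45.7 ± 7.90 CPM) by less than either SD. The log2 fold change was -0.76 (SE 0.14, -1.07 to -0.46) for Sal–Coc against Sal–Sal, 0.93 (SE 0.14, 0.62 to 1.23) for Coc–Coc against Sal–Coc and 0.17 (SE 0.13, -0.13 to 0.47) for Coc–Coc against Sal–Sal.

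**Figure D2:**
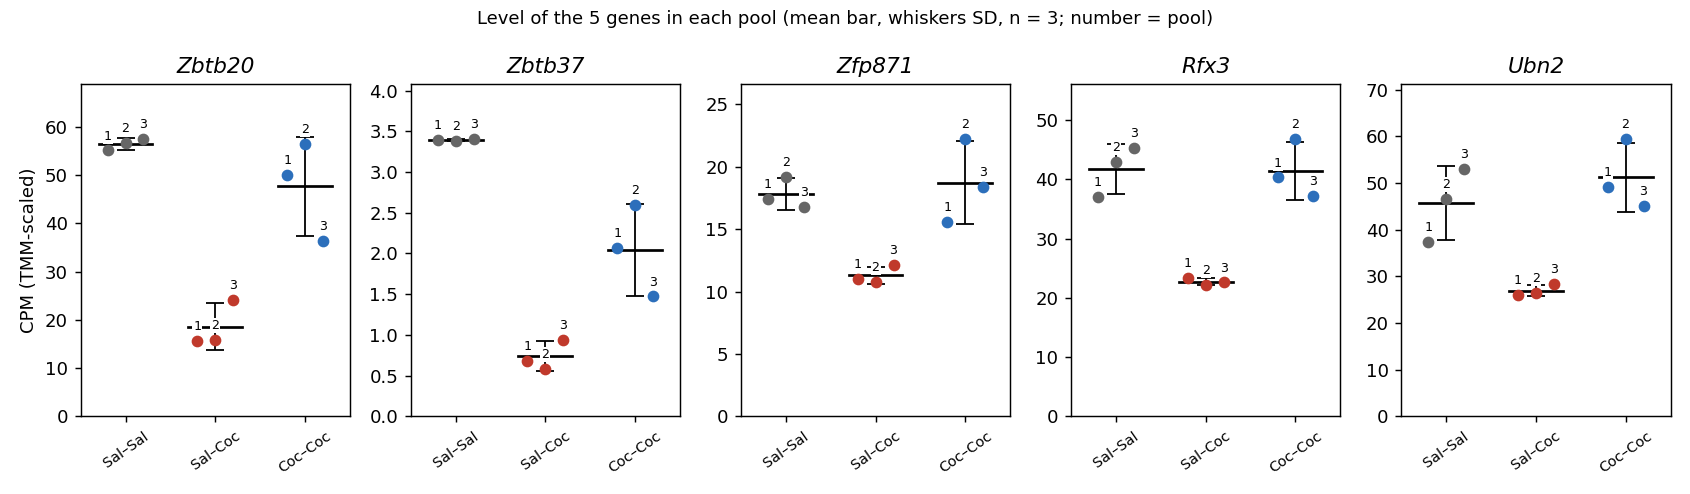
Level of each gene (vertical axis, CPM after TMM scaling, from 0) in the 3 pools of each group (points, numbered by pool; bar, mean; whiskers, SD, n = 3). For each gene the 3 Sal–Coc pools lie below the 6 other pools, and the Coc–Coc pools of Zbtb37 alone stay below all its Sal–Sal pools.

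The share of the log2 drop that was present again in Coc–Coc was 65.0% for Zbtb37, 83.6% for Zbtb20, 98.8% for Rfx3, 109% for Zfp871 and 123% for Ubn2. Leaving out each pool in turn moved this share between 56.4% and 74.8% for Zbtb37 and between 75.4% and 94.8% for Zbtb20. For both BTB zinc finger genes the lowest share came without Coc–Coc pool 2 and the highest without Coc–Coc pool 3. The ranges were 88.4% to 107% for Rfx3, 89.4% to 128% for Zfp871 and 104% to 146% for Ubn2. The ranges of Rfx3 and Zfp871 spanned a full return, while those of the BTB zinc finger genes stayed under 100% and that of Ubn2 stayed over it. These ranges show the weight of single pools and are not error intervals. The share is built from the drop and the rise by which the genes were chosen, with Sal–Coc in both, and is a description only. The 95% interval of Coc–Coc against Sal–Sal included no difference for Zbtb20 (-0.66 to 0.17) and Ubn2 (-0.13 to 0.47). For these genes a return short of or beyond the saline level was therefore not resolved.

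**Figure D3:**
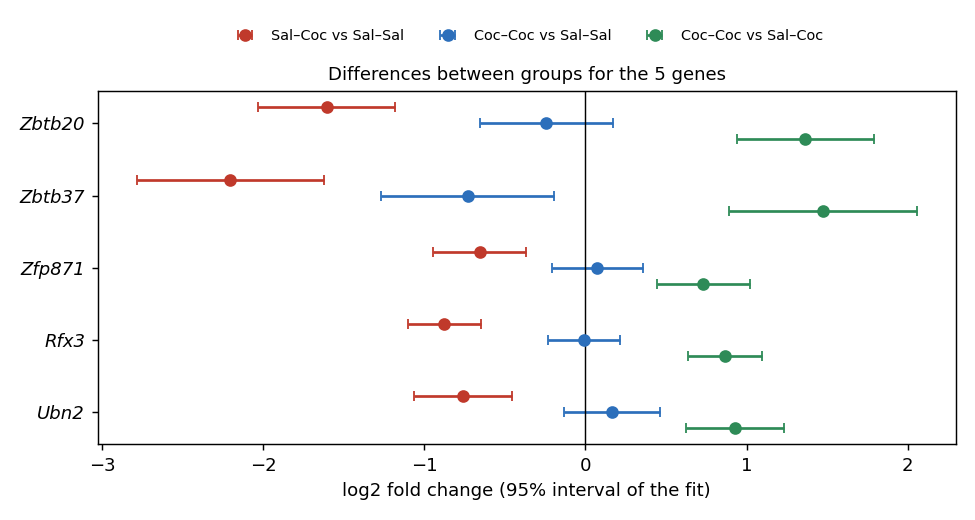
Log2 fold changes (points) with the 95% interval of the edgeR fit (bars, 3 pools per group) for the 3 comparisons of each gene. Drops run from -0.66 for Zfp871 to -2.20 for Zbtb37, and the Coc–Coc against Sal–Sal interval of Zbtb37 alone stays below 0. The intervals are not adjusted for the number of genes tested and are a description.

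Against all genes tested, Zbtb37 had the drop of rank 34 from the lowest log2 fold change between Sal–Coc and Sal–Sal, Zbtb20 of rank 76, Rfx3 of rank 305, Ubn2 of rank 405 and Zfp871 of rank 559. The median over all 15641 genes was -0.01 in each of the comparisons against Sal–Sal. With edgeR and an adjusted p under 0.05, 5.86% of genes tested were lower in Sal–Coc than in Sal–Sal, and the 5 genes were among them. Between Coc–Coc and Sal–Sal, 10.9% of genes passed with edgeR in either direction and 0 of the 5 did. In that comparison DESeq2 called 1684 genes higher and 1140 lower of 14308, and 1 of the 5, Zbtb37, was among them. Between Coc–Coc and Sal–Coc, edgeR called 0% of genes higher, while 4.76% (744 genes) were higher at an unadjusted p under 0.05 and DESeq2 called 0.62% (86 of 13873 genes) at an adjusted p under 0.05, and the 5 genes were in both of the latter sets. Without the filter on low counts edgeR called 5 genes higher, Zbtb20, Rfx3 and Ubn2 among them, and with technical replicate a alone it called 3, Zbtb20 and Rfx3 among them. The 3 Sal–Coc pools lay below all Sal–Sal and all Coc–Coc pools for 3.28% of genes (513), these 5 included. Of these, 37 genes (0.237% of genes tested) had a drop and a rise at least as large as the smallest drop and the smallest rise among the 5. A mean of at least 1 CPM was reached by 19 of the 37. These counts used the contrasts by which the genes were selected.

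Within groups, the deviations of Zbtb20 ran close to those of Zbtb37, and those of Rfx3 close to those of Ubn2. After the group means were taken off, Zbtb20 and Zbtb37 differed by a root-mean-square of 0.0689 log2 units over the 9 pools, and Rfx3 and Ubn2 by 0.0677. The other 8 pairings of the 5 genes differed by 0.132 to 0.214. Sal–Coc pool 3 was above its group mean by 0.41 log2 units for Zbtb20 and 0.36 for Zbtb37, but stood at -0.01 for Rfx3 and 0.07 for Ubn2. Among the saline pools the reverse held, as pool 1 stood at -0.17 for Rfx3 and -0.28 for Ubn2 but at -0.03 for Zbtb20. Coc–Coc pool 2 was the highest of its group for all 5 genes, and Coc–Coc pool 3 was the lowest for 4 of them, with Zfp871 lowest in pool 1. The points share libraries and scaling, and no test was made of these patterns. Zbtb37 had 22 to 34 counts per Sal–Coc pool, where the order of its pools was not resolved. Its closeness to Zbtb20 is limited by that counting error. Technical replicates of a pool varied little more than counting error allows, and chi-square divided by its 27 degrees of freedom ran from 0.764 for Ubn2 to 1.42 for Rfx3.

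The genes whose 9 pools ran closest to each of the 5 were named by the smallest root-mean-square difference in centred log2 CPM, among 13635 genes of at least 1 CPM on average. Centring over the 9 pools keeps the differences between groups, so genes with a like drop in Sal–Coc are found by construction. Rfx3 and Ubn2 were nearest to each other (0.102), followed for both by Vps13b, which encodes a lipid transfer protein of the Golgi (0.108 from Rfx3 and 0.168 from Ubn2). The third place was taken by Zfp704, another zinc finger gene, for Rfx3 (0.150) and by the kinase gene Map3k2 for Ubn2 (0.169). Zbtb20 was nearest to Dgkh, a diacylglycerol kinase gene (0.163), to the Argonaute gene Ago3 (0.197) and to Zbtb37 (0.248). Zbtb37 was nearest to Lrp1b, a gene of the LDL receptor family (0.229), then to Zbtb20 (0.248) and Dgkh (0.378).

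Lrp1b was at 9.91 ± 0.827 CPM in Sal–Sal and at 5.82 ± 1.59 in Coc–Coc (SD, n = 3), with a log2 fold change of -2.19 in Sal–Coc. Like Zbtb37, its Coc–Coc mean stayed below its Sal–Sal mean. Dgkh stood at 43.4 ± 1.96, 16.2 ± 3.65 and 43.6 ± 7.72 CPM in the same order, so that its Coc–Coc mean was at the Sal–Sal level. Zfp871 was nearest to Kdm7a, a histone demethylase gene (0.119), to Vcan, which encodes the matrix proteoglycan versican (0.124), and to the glutamate receptor gene Grm5 (0.130). The neighbours depend on the measure. With each gene scaled to its own SD, 0 of the 3 stayed among the 3 nearest to Zfp871, 1 for Zbtb37 (Lrp1b fell to place 7 and Dgkh to place 46) and 1 for Ubn2 (Vps13b fell to place 24 and Map3k2 to place 20). Ago3 likewise left the first 3 places of Zbtb20, and Zfp704 those of Rfx3. The pairs of Zbtb20 with Zbtb37 and of Rfx3 with Ubn2 stayed among the 3 nearest under both measures, which keep the group differences by which these genes were chosen.

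**Figure D4:**
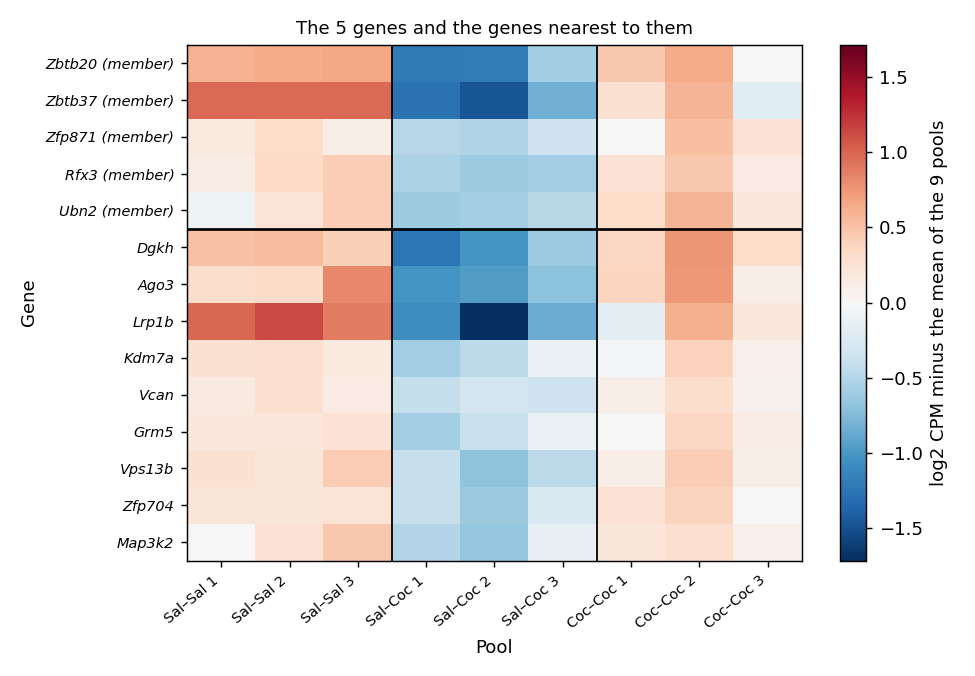
Log2 CPM of the 5 genes (above the black line) and of the genes nearest to them (below), each minus its mean over the 9 pools (colour), by pool (columns). Sal–Coc pools are low for every gene drawn, as the choice of the genes and of their neighbours favours. Coc–Coc pool 2 is the highest of its group for each of the 5.

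Relatives of the 5 genes and other chromatin genes were then counted from fixed lists. Symbols could be joined to 1501 gene IDs, all of them listed as differentially expressed on these same libraries, so the counts below are no independent evidence of a direction, and listed genes without a symbol are not analysed here. Of the joined genes that were tested (1499), 466 were lower in Sal–Coc than in Sal–Sal and 1033 were higher, so that 31.1% were lower. With edgeR at an adjusted p under 0.05, 62.3% of joined genes were called higher and 28.2% lower between Sal–Coc and Sal–Sal. Between Coc–Coc and Sal–Sal, 49.4% of joined genes were called higher and 12.4% lower in the same way. The lists other than markers gave 29 calls between Coc–Coc and Sal–Sal, of which 29 were lost without Coc–Coc pool 3, 22 without Coc–Coc pool 2 and 19 without Sal–Sal pool 1.

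Of 45 other BTB zinc finger genes listed, 3 were joined, and they did not move together. Zbtb40 (log2 fold change 0.84, SE 0.11, adjusted p = 0.00403 with edgeR) and Zbtb17, which encodes the Myc partner Miz-1 (0.61, SE 0.09, adjusted p = 0.0046), were higher in Sal–Coc than in Sal–Sal, and Zbtb41 was lower (-0.56, SE 0.10, adjusted p = 0.00898). In Coc–Coc, Zbtb40 and Zbtb17 were still higher than in Sal–Sal (0.73 and 0.48, adjusted p = 0.0161 and 0.019 with edgeR), and Zbtb41 did not pass (-0.29, adjusted p = 0.0941). The Coc–Coc call of Zbtb40 was lost without Coc–Coc pool 3, and that of Zbtb17 without Coc–Coc pool 2 or 3 or Sal–Sal pool 1.

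Rfx1 was the 1 joined gene of 9 other RFX factors, and in Sal–Coc it differed from Sal–Sal in the direction opposite to Rfx3. Its level was 31.2, 34.1 and 38.6 CPM in Sal–Sal. Sal–Coc pools held 59.8, 56.7 and 60.4 CPM, and Coc–Coc pools 55.1, 51.2 and 55.3 CPM. Every cocaine pool lay above every saline pool, with a log2 fold change of 0.77 (SE 0.08, adjusted p = 0.00376 with edgeR) for Sal–Coc and 0.64 (SE 0.08, adjusted p = 0.0161) for Coc–Coc. The Coc–Coc call of Rfx1 was lost without Coc–Coc pool 3. Ift140 and Mks1, the 2 joined of 22 cilium genes, which serve intraflagellar transport and the ciliary transition zone, were also higher in Sal–Coc (0.65 and 0.68, adjusted p = 0.00412 and 0.00586 with edgeR). In Coc–Coc, Ift140 stood at 0.21 (adjusted p = 0.154) and Mks1 at 0.46 (adjusted p = 0.0331), a call that was lost when Sal–Sal pool 1 or 2, Sal–Coc pool 2 or any Coc–Coc pool was left out.

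Hira, which encodes the histone chaperone that Ubn2 assembles with, was the 1 joined gene of 12 in its list, and in Sal–Coc it differed from Sal–Sal in the direction opposite to Ubn2. It rose from 16.2 ± 1.49 CPM in Sal–Sal to 24.3 ± 2.75 in Sal–Coc (log2 fold change 0.58, SE 0.11, adjusted p = 0.00846 with edgeR) and was at 24.9 ± 1.44 CPM in Coc–Coc (0.62, SE 0.11, adjusted p = 0.0161). The Coc–Coc call of Hira was lost without Coc–Coc pool 2 or 3. Setdb1, the histone methyltransferase recruited by KRAB zinc finger proteins, was the 1 joined gene of 7 in the KRAB corepressor list. It was higher in Sal–Coc (0.44, SE 0.09, adjusted p = 0.0148 with edgeR, a call lost without Sal–Coc pool 2) and in Coc–Coc (0.42, SE 0.09, adjusted p = 0.0267) than in Sal–Sal. Its Coc–Coc call was lost without Coc–Coc pool 2 or 3 or Sal–Sal pool 1.

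Of 89 listed chromatin remodellers and histone or DNA modifiers, 8 were joined, of which 7 were higher and 1 lower in Sal–Coc than in Sal–Sal. Among all joined genes, 62.3% were called higher and 28.2% lower. The histone deacetylase genes Hdac10 (0.90) and Hdac7 (0.89) had the largest rises, with adjusted p = 0.00403 and 0.0134 (edgeR), the call of Hdac7 being lost without Sal–Sal pool 1. In Coc–Coc, 6 of the 7 passed edgeR's adjusted test as higher than in Sal–Sal, where 49.4% of joined genes were called higher. Among the 6, Hdac10 (0.83), the DNA methyltransferase gene Dnmt3a (0.65) and the bromodomain gene Brd9 (0.50) had the largest values. Hdac7 did not pass (0.52, adjusted p = 0.0941 with edgeR). The lower gene was Tet1, which oxidises methylcytosine.

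Tet1 was at 5.81, 6.08 and 8.31 CPM in Sal–Sal. Sal–Coc pools held 4.10, 2.61 and 4.02 CPM, and Coc–Coc pools 6.14, 7.97 and 5.33 CPM. It was lower in Sal–Coc by a log2 fold change of -0.91 (SE 0.23, adjusted p = 0.0269 with edgeR) and stood at -0.06 (SE 0.22) in Coc–Coc. The call of Tet1 in Sal–Coc was lost when Sal–Sal pool 1 or 3 or Sal–Coc pool 2 or 3 was left out. Between Coc–Coc and Sal–Coc directly, 0 of the 8 passed edgeR's adjusted test, 1 was higher at an unadjusted p under 0.05, and DESeq2 called 1, in both cases Tet1 (0.86). Of all genes tested, 4.76% were higher at an unadjusted p under 0.05 with edgeR, and DESeq2 called 0.62% higher at an adjusted p under 0.05.

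**Figure D5:**
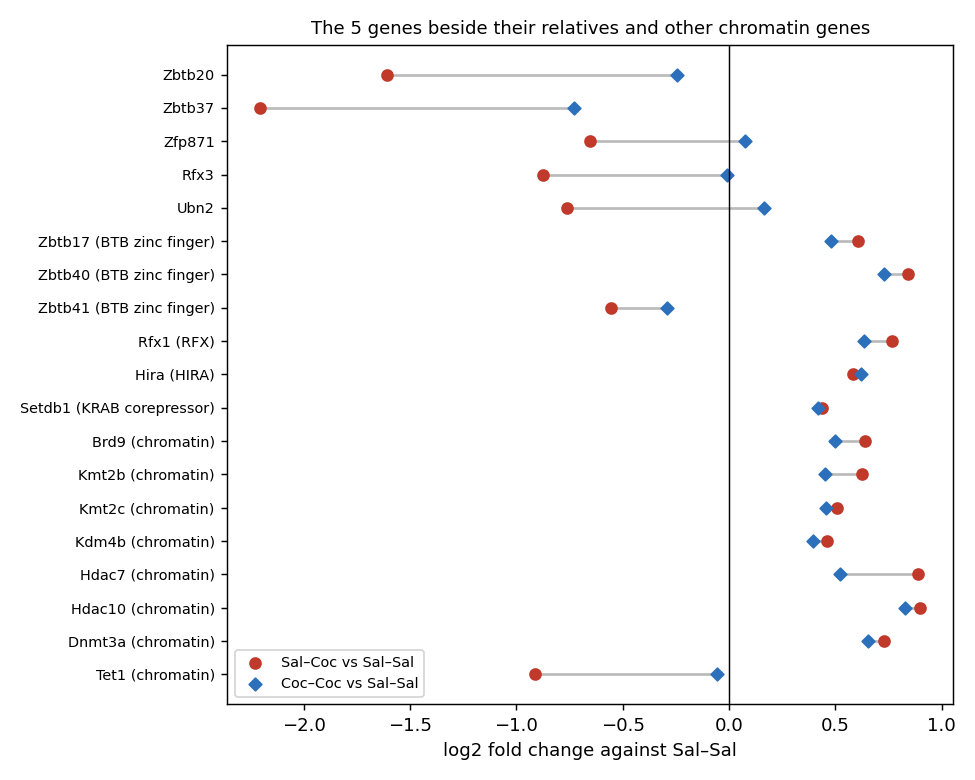
Log2 fold change against Sal–Sal (horizontal axis) in Sal–Coc (circles) and Coc–Coc (diamonds) for the 5 genes and the joined genes of 5 lists (list in brackets), joined by a line. For Rfx1, Hira and Setdb1 both symbols lie above 0, while Tet1 lies below 0 in Sal–Coc and near it in Coc–Coc.

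Among 22 joined genes with a numbered Zfp or Znf symbol other than Zfp871, 14 were higher and 7 lower in Sal–Coc at an adjusted p under 0.05 with edgeR. Of all joined genes, 62.3% were called higher and 28.2% lower in that comparison. By sign alone 31.8% of them were lower, beside 31.1% of all joined genes. The largest differences were those of Zfp580 (-1.32), Zfp692 (1.08) and Zfp566 (0.95), and the call of Zfp580 was lost without any 1 of 5 pools (Sal–Sal 1 and 2, Sal–Coc 1, 2 and 3). In Coc–Coc, 15 were higher and 2 lower than in Sal–Sal at an adjusted p under 0.05 with edgeR. Of all joined genes, 49.4% were called higher and 12.4% lower in the same way. Among the called genes of the list, Zfp692 (0.88), Zfp566 (0.88) and Zfp503 (-0.71) had the largest differences. Zfp580 did not pass (-0.999, adjusted p = 0.0738 with edgeR). Zfp704 followed the pattern of the 5 genes, at 12.4 ± 0.163 CPM for Sal–Sal, 7.91 ± 1.02 for Sal–Coc and 12.4 ± 1.55 for Coc–Coc (-0.64 in Sal–Coc, SE 0.13, adjusted p = 0.0113 with edgeR). Between Coc–Coc and Sal–Coc, 0 of the 22 passed edgeR's adjusted test, 3 were higher and 2 lower at an unadjusted p under 0.05, and DESeq2 called 1, Zfp704. Of all genes tested, 4.76% were higher at an unadjusted p under 0.05 with edgeR, and DESeq2 called 0.62% higher at an adjusted p under 0.05. The share lower at an unadjusted p, and the unadjusted and DESeq2 shares of joined genes, were not worked out.

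Cell type markers could be joined only where they were listed as differentially expressed on these libraries. The 1 astrocyte marker joined therefore does not stand for its list, and the levels of the others are not known here. Slc1a2, the glial glutamate transporter and the 1 joined gene of 7 astrocyte markers, ranged from 394 to 530 CPM in Sal–Sal pools. The range was 202 to 292 CPM for Sal–Coc and 370 to 521 CPM for Coc–Coc. The log2 fold change of Slc1a2 was -0.85 (SE 0.17, adjusted p = 0.0117 with edgeR, lost without Sal–Sal pool 1) in Sal–Coc and -0.05 (SE 0.17) in Coc–Coc. Zbtb20 is itself expressed in astrocytes, and the part of astrocyte content in its values was not tested. Flt1, the 1 joined of 5 endothelial markers, was higher in Sal–Coc (0.54, SE 0.16, adjusted p = 0.0433 with edgeR, lost without any 1 of 7 pools). The haemoglobin gene Hba-a2, the 1 joined of 7 blood markers, was at 0.63 CPM for Sal–Sal, 0.865 for Sal–Coc and 2.69 for Coc–Coc. Markers of neurons, oligodendrocytes, microglia and ependyma were not joined, and the labelled tissue was not checked by them.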

How the data were processed

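Unnormalized gene counts are what the authors deposited, in 36 tables (9 pools, each with 4 technical replicates). Before that, per the study's methods, they trimmed and filtered 75-base single reads of stranded poly(A) libraries, aligned them to the Ensembl rat genome with STAR, removed reads mapping more than 1 time and counted within Eoulsan, and the processing notes name bcl2fastq 2.17.1.14 and HTSeq 0.5.3. The strand setting of the counting is not given in the sources used here.

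Technical replicates were summed per pool. For group differences edgeR 4.0.16 was run under R 4.3.3 (filterByExpr, TMM, quasi-likelihood fit over 9 pools, Benjamini-Hochberg adjustment over 15641 genes), which was tested on simulated data. The spread is that between pools of different animals. DESeq2 1.42.0, other scalings, no low-count filter, only the compared pools, a pool-number block, 1 technical replicate and leaving out each pool were the alternatives.

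The tables hold IDs without symbols. Symbols were joined through the study's supplementary fold changes, used as keys and not as results. A fold change shifted by 0.1% found an ID for 51 of 1386 keys, so a few joins may be wrong. The members and lists were chosen with earlier results of these data known. Besides the members, genes were named as the 3 nearest to each member in centred log2 CPM (prior count 2), the fixed relatives that were joined (Rfx1, Hira and Setdb1), the 3 called genes with the largest difference per list, and the marker genes joined. Summed marker levels, ribosomal and mitochondrial shares, transcript length and protein features were not analysed here. An item of a list is not reported here.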

Additional observations from a re-analysis of the deposited data

How the results depend on the processing

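Of 80 values per comparison for the 5 genes under other settings, 79 (Sal–Coc against Sal–Sal), 80 (Coc–Coc against Sal–Sal) and 79 (Coc–Coc against Sal–Coc) moved by less than 1 SD, and 80, 75 and 80 kept their sign. The exceptions were Rfx3 with technical replicate a alone, at -1.06 in Sal–Coc and 1.05 for Coc–Coc against Sal–Coc, and 5 values near 0. In Coc–Coc against Sal–Sal, technical replicate a alone called 1 BTB zinc finger gene, and the cilium call fell to 0 with only the 6 pools compared and to 0 with pool numbers as a replicate block. In Coc–Coc against Sal–Coc, DESeq2 called 86 genes higher and 64 lower of 13873. Among them were 1 numbered Zfp, 1 chromatin and 1 cilium gene, where edgeR called 0. The cause was not tested.

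Leaving out 1 pool gave, in Coc–Coc against Sal–Sal, 0 to 2 BTB zinc finger, 0 to 1 RFX, 0 to 1 HIRA, 0 to 1 KRAB corepressor, 0 to 17 numbered Zfp, 0 to 7 chromatin and 0 to 1 cilium calls. Without Coc–Coc pool 3 every one of these lists had 0 calls. Without Coc–Coc pool 2 the numbered Zfp calls were 4 and the chromatin calls 1, and without Sal–Sal pool 1 they were 5 and 2. In Sal–Coc against Sal–Sal, the KRAB corepressor call ranged from 0 to 1 (0 without Sal–Coc pool 2).

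Same-numbered pools held different animals. Their deviations from group means correlated at a mean of -0.03 (9 pairs, -0.40 to 0.25), beside 0.02 for other numbers (18 pairs, -0.46 to 0.57). Centring on the group means ties these means to each other, so their difference is no test of a pairing by number. The replicate block changed no other call count by over 1.5 times.

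Zbtb37, with 22 to 34 counts per Sal–Coc pool, is limited most by depth.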
